A study of Mus musculus with 24 samples.

Results

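Dendritic cells are sparse in the liver, and the 9 genes described here mark or build their subsets. They were chosen by name as Xcr1, Clec9a, Itgae, Batf3, Irf8, Zbtb46, Flt3, Cd209a and Siglech, 9 of the 56205 genes in the count table. RNA-Seq was done on poly(A) RNA of whole liver from C57BL/6J mice, with 12 libraries of the high-fat diet (rich in cholesterol, fructose and palm oil) and 12 of the matching control diet after 20 weeks of feeding. The study used mice of both sexes, and the labels give neither the sex nor the source animal of a library, so a p-value measures the spread between these libraries. No transgene, deletion or drug was part of either group, and whole liver is mostly hepatocyte RNA: Alb, the hepatocyte albumin gene, was at 45203 ± 16123 CPM (read counts scaled to library size; mean ± SD, n = 12) under high-fat feeding and 74342 ± 15788 on the control diet.

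Dendritic cells take up antigen and present it to T cells. Conventional dendritic cells need the cytokine receptor Flt3 and express the transcription factor Zbtb46. Their type 1 subset (cDC1) depends on the factors Irf8 and Batf3 and carries the chemokine receptor Xcr1, the dead-cell receptor Clec9a and, in tissues, the integrin chain Itgae (CD103). Cd209a, a lectin of the DC-SIGN family, marks type 2 conventional (cDC2) and monocyte-derived cells, and Siglech is a receptor of plasmacytoid dendritic cells. Several of these genes are also used elsewhere: Irf8 in monocytes, macrophages and B cells, Zbtb46 in endothelial cells and Itgae in T cells.

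Counts per library summed to between 14468418 and 22112552, and the TMM factors that scaled them to CPM ran from 0.679 to 1.34. All 9 genes passed the filter of at least 1 count in at least 12 libraries, as did 17913 genes in all. A gene was called when its adjusted p was at most 0.01 and its absolute log2 fold change was over 0.5, by the quasi-likelihood test of edgeR, adjusted after Benjamini and Hochberg over all 17913 genes. The libraries also differed in Xist, the transcript of the inactive X chromosome. Replicates 1 to 6 of each diet had more than 1000 Xist counts (2664 to 6285) and replicates 7 to 12 had fewer (0 to 3). These are sets of libraries and not groups of the study. The TMM factors differed with diet and set. Those of replicates 7 to 12 were 1.12 to 1.34 on the high-fat diet and 0.679 to 0.956 on the control diet. Those of replicates 1 to 6 were 0.995 to 1.06 and 0.892 to 1.01. High-fat replicate 9 stood apart among the libraries of its diet. Its summed level was the highest for the general, cDC1, plasmacytoid, mature, monocyte and T cell gene lists described below. It was the lowest for the cDC2 (256 CPM), resident macrophage (373 CPM), endothelial (179 CPM) and hepatocyte (35473 CPM) lists.

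On the high-fat diet Irf8, Batf3 and Flt3 were higher, and none of the 9 genes was lower. The 3 called genes compare with 13.2% of all genes tested called higher and 4.99% called lower. Irf8 rose by a log2 fold change of 1.23 (SE 0.18, adjusted p = 1.26e-05), Flt3 by 1.45 (SE 0.31, adjusted p = 0.000629) and Batf3 by 0.996 (SE 0.27, adjusted p = 0.00486). The other 6 genes did not pass, and all 9 log2 fold changes were above 0. Their median was 0.86, beside -0.03 over all genes tested. Without high-fat replicate 9 the log2 fold changes of Irf8, Flt3 and Batf3 were 1.19, 1.33 and 1.03, and all 3 were again called. In whole liver, more cells of a type and more RNA per cell cannot be told apart.

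**Figure D1:**
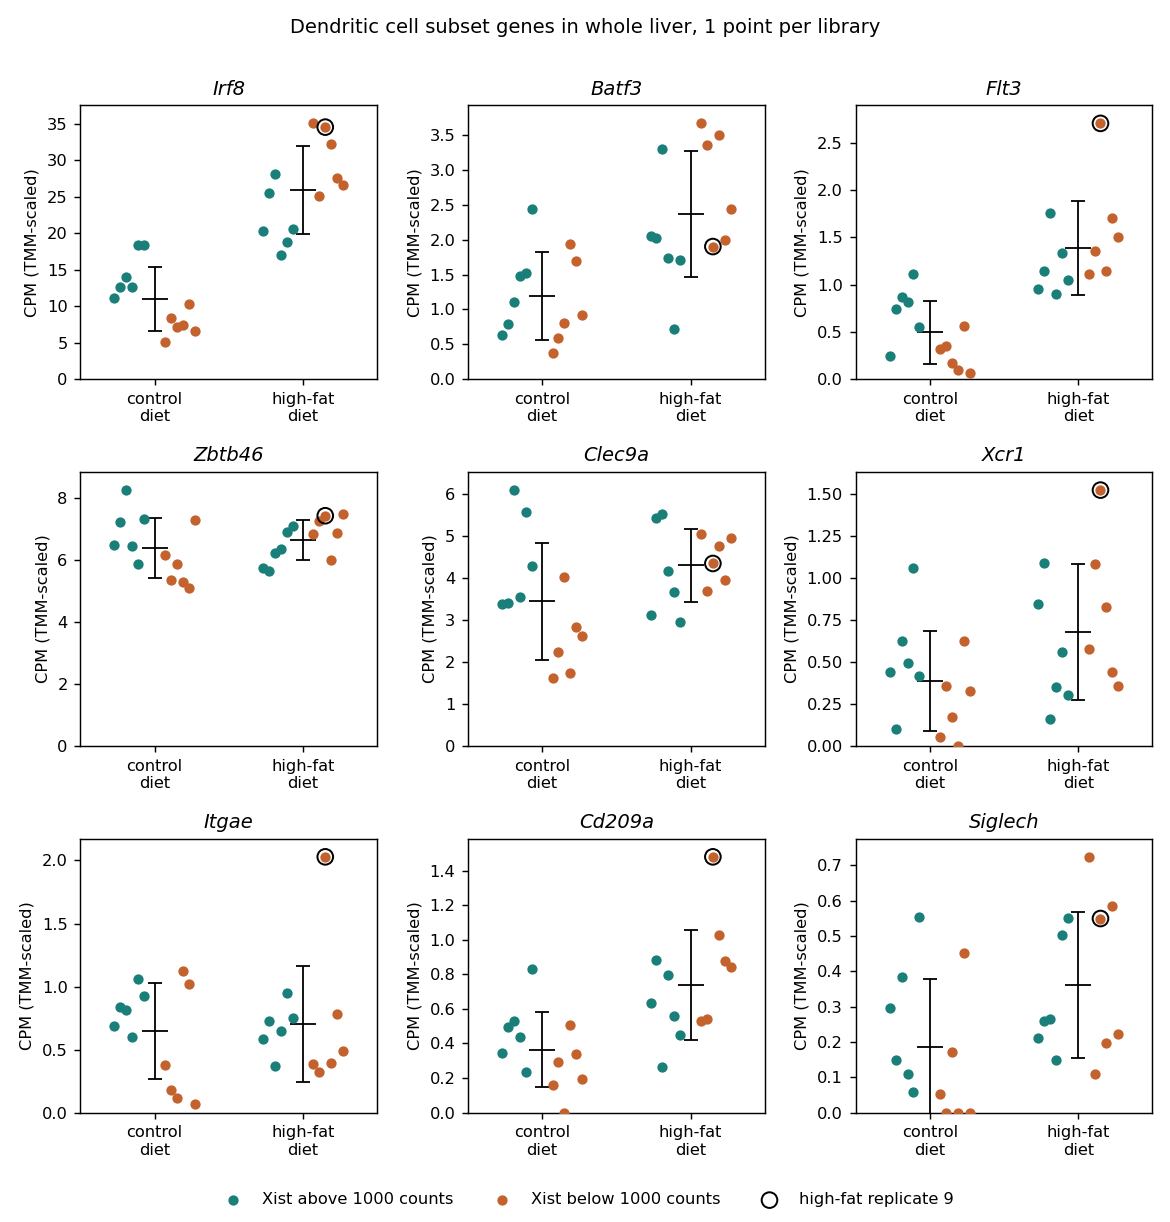
CPM of each gene (vertical axis, from 0) in each library of the control and high-fat diets, with the mean and SD of the 12 libraries in black (the lower bar of Siglech on the control diet is cut at 0) and points coloured by Xist counts. The plot shows 11 of 12 high-fat libraries above every control library for Irf8, near-level groups for Zbtb46, and high-fat replicate 9 (ringed) on top for Xcr1, Itgae, Flt3 and Cd209a.

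Batf3 and Irf8 encode the pair of transcription factors that set up the cDC1 program, Irf8 acting earlier in progenitors and Batf3 keeping its expression up in cDC1. Irf8 (GRCm38 chr8:120736358-120756694, plus strand) ran from 17.0 to 35.05 CPM with a median of 26.01 on the high-fat diet, against 5.13 to 18.4 CPM with a median of 10.7 on the control diet. In 11 of the 12 high-fat libraries it was above every control library, and the groups overlapped only through high-fat replicate 4, the lowest on that diet. Batf3 (chr1:191097847-191108945, plus strand) was at 0.725 to 3.67 CPM, median 2.04, on the high-fat diet versus 0.378 to 2.45 CPM, median 1.01, on the control diet. The Batf3 groups overlapped widely: only 4 high-fat libraries exceeded the highest control, replicate 6, while high-fat replicate 5 lay below the control median.

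Promoter sequence is shown as stretches with motif matches, for these factors and for the receptors Clec9a and Cd209a. The windows of the receptors hold motifs that interferon regulatory factors read. Zbtb46 and Siglech windows also hold matches and are not printed. RefSeq windows of 300 bases (GRCm38.p6), from 250 bases before a gene's start to 50 after it, were found for 8 of the 9 genes, in 9 windows since Irf8 has 1 for each of its starts. The RefSeq start of Batf3 lies inside the GENCODE gene given above, so its stretch does too. The Zbtb46 window (chr2:181424339-181424638, minus strand) also lies inside its GENCODE gene, whose upstream end is at 181459426. Capitals mark matches to motifs searched on both strands.
Irf8, chr8:120736158-120736257, plus strand, 2 GAS motifs: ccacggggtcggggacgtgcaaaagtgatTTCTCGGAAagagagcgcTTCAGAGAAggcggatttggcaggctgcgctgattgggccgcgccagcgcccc
Batf3, chr1:191098164-191098263, plus strand, GAS motif: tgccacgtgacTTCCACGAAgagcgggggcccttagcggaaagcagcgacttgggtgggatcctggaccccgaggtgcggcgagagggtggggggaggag
Clec9a, chr6:129408772-129408869, plus strand, interferon-stimulated response element core: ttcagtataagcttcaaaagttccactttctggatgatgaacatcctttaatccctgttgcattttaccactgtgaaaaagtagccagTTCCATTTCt
Cd209a, chr8:3748984-3749143, minus strand, ETS-IRF composite core in both orientations: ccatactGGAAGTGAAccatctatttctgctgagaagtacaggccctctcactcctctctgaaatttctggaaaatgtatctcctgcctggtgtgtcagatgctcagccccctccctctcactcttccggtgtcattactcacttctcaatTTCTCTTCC
The GAS motif (TTCNNNGAA), the element bound by STAT dimers, stood 171 and 153 bases before the Irf8 start, 239 bases before the Batf3 start and 123 bases before the Siglech start. It was in 3 of the 9 windows and in 8.30% of all 32851 windows. The interferon-stimulated response element core (GAAANNGAA) was in the Clec9a window alone among these genes and in 8.56% of all windows, and the ETS-IRF composite core (GGAANNGAA) in the Cd209a window alone and in 8.24% of all. The AP-1 motif (TGANTCA) and the AP-1-IRF composite core (GAAATGANT), which is read by BATF with IRF proteins, share the letters TGANT. Their matches overlapped 61 and 59 bases before the RefSeq start of Zbtb46, which lies inside the GENCODE gene. Those were the only matches of either motif here, beside 7.81% and 1.34% of all windows. No motif was found in the Flt3 or Xcr1 window or in the second Irf8 window.

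Flt3 (chr5:147330741-147400489, minus strand) encodes the receptor tyrosine kinase that dendritic cell precursors need. It was read in 18 to 64 counts per high-fat library and in 1 to 19 counts per control library. As CPM it ran from 0.896 to 2.71, median 1.24, on the high-fat diet versus 0.0658 to 1.12, median 0.454, on the control diet. On the high-fat diet 8 libraries were above every control library, and 11 control libraries were below every high-fat library, the exception being control replicate 5. Replicate 9 was the highest high-fat library, and without it the log2 fold change was 1.33. The ligand Flt3l was at 1.83 ± 0.640 CPM on the high-fat diet versus 1.52 ± 0.430 on the control one (log2 fold change 0.26, SE 0.19, adjusted p = 0.303), and so was not called.

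Zbtb46 (chr2:181387762-181459426, minus strand), the factor shared by conventional dendritic cells, did not pass the test. Its log2 fold change was 0.06 (SE 0.09, adjusted p = 0.628). It ran from 5.65 to 7.48 CPM, median 6.86, on the high-fat diet versus 5.10 to 8.27 CPM, median 6.31, on the control diet. No high-fat library was above the highest control library, replicate 3. Among the 9 genes Zbtb46 varied least between libraries of a diet, with a coefficient of variation of 9.66% on the high-fat diet versus 15.3% on the control diet. The summed level of 8 endothelial genes was 179 to 359 CPM, median 273, on the high-fat diet versus 164 to 375 CPM, median 277, on the control diet, and its part in the Zbtb46 level was not tested.

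The cDC1 receptors did not pass either. Clec9a (chr6:129408862-129424763, plus strand), which recognises dead cells, was at 2.96 to 5.54 CPM, median 4.27, on the high-fat diet versus 1.62 to 6.10 CPM, median 3.40, on the control one (log2 fold change 0.31, SE 0.18, adjusted p = 0.179). The highest of all 24 libraries was a control library, replicate 3, while 5 control libraries lay below every high-fat library. Of the exon length of Clec9a, 184 bases (5.59%) are also exon of Clec1b on the same strand, so reads there cannot be assigned to 1 gene. Clec1b, named for this overlap, was higher on the high-fat diet (17.3 ± 5.13 against 9.67 ± 3.35 CPM, log2 fold change 0.83, SE 0.18, adjusted p = 0.00061), and its part in the Clec9a counts was not tested.

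Xcr1 (chr9:123852315-123862029, minus strand), the receptor of the chemokine Xcl1, was read in 3 to 36 counts per high-fat library and 0 to 18 per control library. The CPM median was 0.569 on the high-fat diet versus 0.384 on the control one (log2 fold change 0.77, SE 0.41, adjusted p = 0.137). High-fat replicate 9 held the highest value, 1.52 CPM, and control replicate 10 had no read. Some of its sequence recurs elsewhere: 1.63% of the 50-base words in Xcr1 transcripts were also in transcripts of other genes, beside 4.02% for Clec9a (all shared with Clec1b), at most 0.389% for Siglech and Flt3, and none for the other 5.

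Itgae (chr11:73090583-73147446, plus strand), which pairs with Itgb7 to bind E-cadherin, was not called (log2 fold change 0.12, SE 0.36, adjusted p = 0.818). It was read in 6 to 48 counts per high-fat library and 1 to 20 per control library, with CPM medians of 0.614 and 0.753. The value of 48 was replicate 9, at 2.03 CPM. Without that library the direction turned and the log2 fold change was -0.15. The same library also held the highest summed level of 10 T cell genes, at 13.7 CPM, in a range of 3.68 to 13.7 on the high-fat diet versus 3.17 to 13.2 on the control diet. No T cell gene was at 0 in every library, and 5 of 10 had reads in all 24. Their part in the Itgae level was not tested.

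Cd209a (chr8:3743397-3748984, minus strand) was read in 5 to 35 counts per high-fat library and 0 to 18 per control library. Its CPM median was 0.715 on the high-fat diet versus 0.342 on the control diet, and 11 of 12 high-fat libraries were above the control median. The log2 fold change was 1.01 (SE 0.33) and its adjusted p of 0.0185 by edgeR's quasi-likelihood test missed the threshold. DESeq2 called it (1.04, adjusted p = 0.00429). Replicate 9 was again the highest high-fat library, at 1.48 CPM.

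Siglech (chr7:55768178-55778925, plus strand) was at the limit of detection. It had 2 to 15 counts per high-fat library and 0 to 12 per control library, with no read in 3 control libraries and at most 3 counts in 8. At this depth 3 counts, the limit that a count of 0 allows, were 0.118 to 0.305 CPM, and the median Siglech level was 0.263 CPM on the high-fat diet versus 0.129 on the control diet. Its log2 fold change of 0.86 (SE 0.47, adjusted p = 0.152) was not called.

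Compared per kilobase of merged exon (GENCODE M21 gene models), Irf8 was the most abundant of the 9 on both diets, at 3.68 ± 0.851 CPM per kb on the high-fat diet versus 1.56 ± 0.619 on the control diet. Clec9a came next on the control diet (1.05 ± 0.424), then Zbtb46 (0.751 ± 0.115), Batf3 (0.747 ± 0.391), Cd209a (0.230 ± 0.136), Itgae (0.142 ± 0.0830), Xcr1 (0.0872 ± 0.0667), Flt3 (0.0800 ± 0.0546) and Siglech (0.0549 ± 0.0565). In that order all 8 neighbouring pairs overlapped in mean ± SD. On the high-fat diet Batf3 (1.48 ± 0.565 CPM per kb) stood second, ahead of Clec9a (1.31 ± 0.262), Zbtb46 (0.783 ± 0.0756), Cd209a (0.468 ± 0.201), Flt3 (0.225 ± 0.0807), Itgae (0.153 ± 0.101), Xcr1 (0.152 ± 0.0909) and Siglech (0.107 ± 0.0611). There 3 of the 8 pairs were apart: Irf8 from Batf3, Clec9a from Zbtb46, and Zbtb46 from Cd209a.

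Ptprc, which encodes CD45, the surface phosphatase of leukocytes, was called higher (20.9 ± 3.82 against 9.49 ± 4.53 CPM, log2 fold change 1.13, SE 0.20, adjusted p = 8.2e-05). Set against Ptprc in the same library, as a description with no test, Irf8 had a median of 123% on the high-fat diet versus 118% on the control diet. Batf3 was at 11.01% and 11.5%, and Flt3 at 6.09% and 5.66%. Cd209a was at 3.78% and 3.90%, and Siglech at 1.32% and 1.28%. For Zbtb46, Clec9a, Itgae and Xcr1 the medians were further apart. Zbtb46 had a median of 34.4% on the high-fat diet (range 21.8% to 41.8%) and 73.9% on the control diet (36.8% to 142%), and Clec9a 20.2% (16.7% to 28.5%) and 35.5% (24.3% to 66.7%). In both, the highest high-fat library exceeded the lowest control library, so the ranges overlapped.

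**Figure D2:**
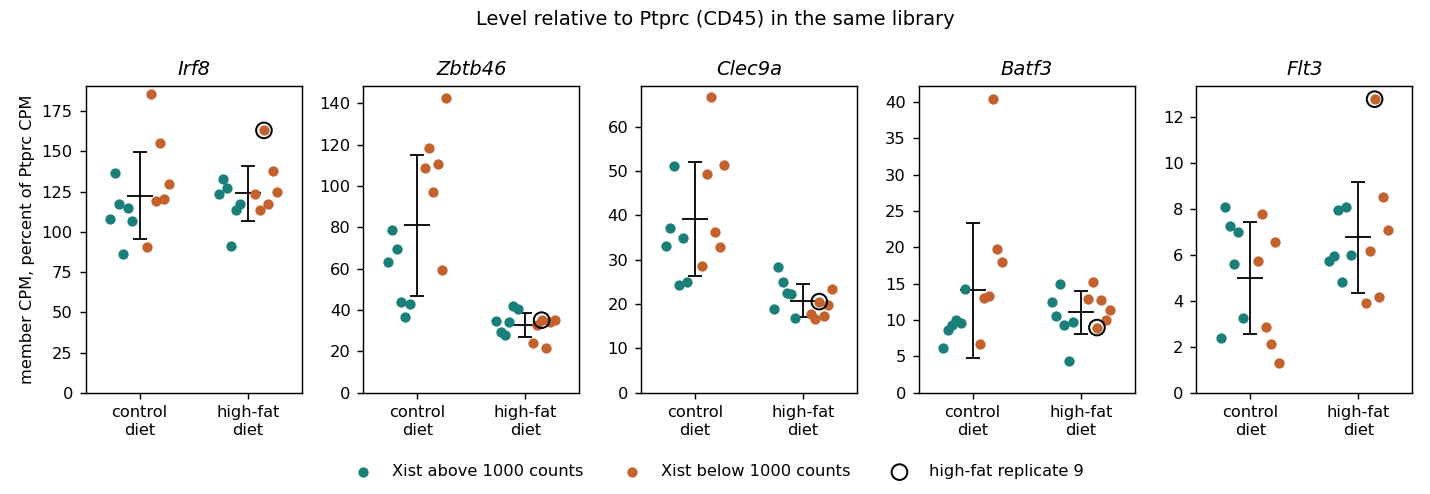
CPM of Irf8, Zbtb46, Clec9a, Batf3 and Flt3 as a percentage of the Ptprc CPM of the same library (vertical axis, from 0), with mean and SD of the 12 libraries of each diet in black and points coloured by Xist counts. Irf8 sits around its Ptprc level on both diets (medians 123% and 118%), while Zbtb46 is at a median of 34.4% on the high-fat diet versus 73.9% on the control diet.

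The diet difference was not the same in the sets of libraries by Xist counts. Among the 12 libraries with Xist above 1000 counts none of the 9 genes was called higher, where 2.82% of all genes tested were. Among the 12 with Xist below 1000 counts 5 were called higher, where 14.3% of all genes were: Irf8, Flt3, Cd209a, Batf3 and Clec9a. Fitted in each set alone, Irf8 had a log2 fold change of 0.58 (SE 0.15, adjusted p = 0.0176) in the first set and 2.02 (SE 0.16, adjusted p = 1.21e-06) in the second. Flt3 had 0.72 (SE 0.31, adjusted p = 0.141) and 2.52 (SE 0.42, adjusted p = 0.000312). In the second set Irf8, Flt3 and Cd209a did not overlap between the diets. Each was higher in every high-fat library, as were 12.6% of all genes tested there. The control libraries of that set had 1 to 10 Flt3 counts and 0 to 6 Cd209a counts. For each of these 2 genes, 3 of the 6 control libraries had at most 3 counts.

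Tested directly, as the interaction of diet and set in 1 edgeR quasi-likelihood fit (adjusted p at most 0.05), the difference passed for 2 of the 9 genes and for 10.2% of all genes. The log2 fold change of Irf8 was 1.42 larger in the libraries with Xist below 1000 counts (SE 0.22, adjusted p = 0.000279). That of Flt3 was 1.78 larger there (SE 0.52, adjusted p = 0.0275), where the control libraries held only 1 to 10 Flt3 counts. The Flt3 call was lost without high-fat replicate 9 (adjusted p = 0.0576), without control replicate 5 (0.0531) and without control replicate 9 (0.0506). The difference was 0.90 for Clec9a (SE 0.30, adjusted p = 0.0565, passing in 7 of the 24 fits without 1 library, in a range of 0.0179 to 0.109), 1.56 for Cd209a (SE 0.62, adjusted p = 0.112) and between 0.39 and 1.48 for the other 5, none of which passed.

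The sets were also compared within each diet. On the control diet Irf8 was at 14.5 ± 3.11 CPM with Xist above 1000 counts and 7.53 ± 1.76 below (n = 6 each, log2 difference below minus above -0.94, SE 0.16, adjusted p = 0.000205). It was the 1 gene of the 9 called between the sets on that diet, where 5.74% of all genes were called in either direction. For Flt3 the control levels were 0.724 ± 0.297 and 0.264 ± 0.188 CPM (log2 difference -1.36, SE 0.40, adjusted p = 0.0254), and for Clec9a 4.39 ± 1.18 and 2.51 ± 0.883 CPM (-0.79, SE 0.22, adjusted p = 0.0158). On the high-fat diet none of the 9 was called between the sets, where 6.39% of all genes were. Irf8 was there at 21.7 ± 4.22 CPM above and 30.2 ± 4.31 below 1000 Xist counts (log2 difference 0.47, SE 0.15, adjusted p = 0.0355). Ptprc followed a like pattern on both diets. With Xist above and below 1000 counts it was at 13.2 ± 3.20 and 5.796 ± 1.49 CPM on the control diet. On the high-fat diet it was at 18.4 ± 2.10 and 23.4 ± 3.59 CPM. The part of Ptprc-expressing cells in these differences was not tested.

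**Figure D3:**
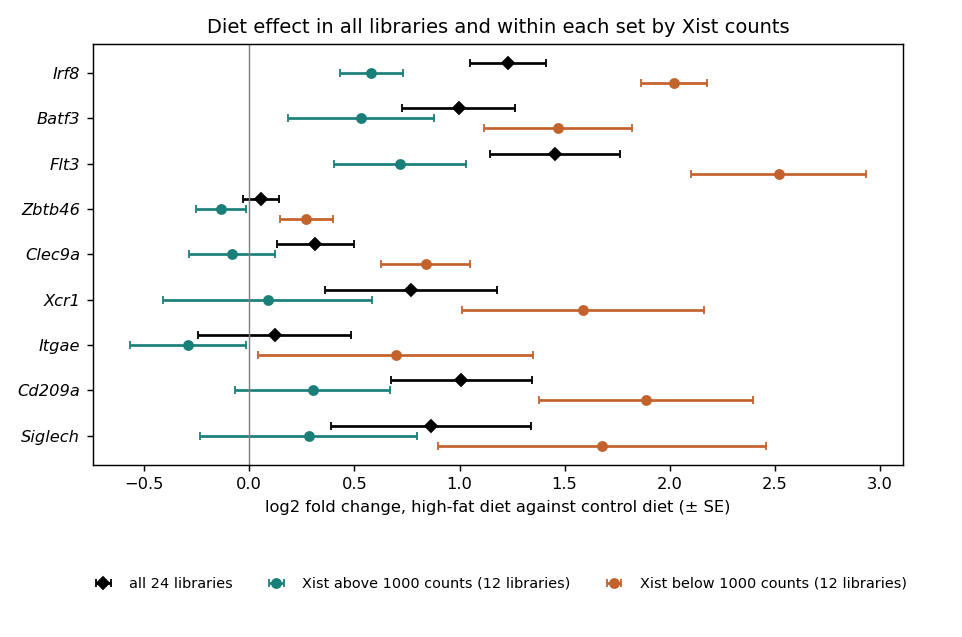
Log2 fold change of each gene on the high-fat diet against the control diet with its SE (horizontal axis), in all 24 libraries (black), in the 12 with Xist above 1000 counts (green) and in the 12 with Xist below (orange). The orange points lie to the right of the green ones for all 9 genes, from 0.58 to 2.02 for Irf8 and from 0.72 to 2.52 for Flt3, and the difference passed its own test for these 2 genes.

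The partners of the 9 genes were read next, since a receptor acts through its ligand and adaptor. Of 13 tested ligands, partners and regulators (14 listed), 6 were called higher and none lower, with a median log2 fold change of 0.72 beside -0.03 over all genes. Among all genes tested, 13.2% were called higher and 4.99% lower. Xcl1, the ligand of Xcr1, was higher (0.308 ± 0.187 against 0.0669 ± 0.107 CPM, log2 fold change 2.01, SE 0.54, adjusted p = 0.00453), at no more than 20 counts in any library and none in 7. Syk, the kinase through which Clec9a signals, was higher by 1.46 (SE 0.20, adjusted p = 4.91e-06), and Tyrobp, the adaptor of Siglech, by 1.52 (SE 0.24, adjusted p = 3.07e-05). On the high-fat diet Tyrobp was at 30.5 ± 8.12 CPM, beside 0.360 ± 0.207 for Siglech. The part of monocytes and macrophages in the Syk and Tyrobp levels was not tested. Wdfy4, needed by cDC1 to present antigen taken up from dead cells, was higher by 1.05 (SE 0.19, adjusted p = 0.000147).

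Other partners did not pass. For the Itgae partner Itgb7 the log2 fold change was 0.72 (adjusted p = 0.0274), and for the ligand Cdh1, E-cadherin, 0.46 (adjusted p = 0.31). Among the factors of dendritic cell development, Id2 had -0.13 (adjusted p = 0.542) and Nfil3 -0.16 (adjusted p = 0.399), both needed for cDC1, and Irf4, a cDC2 factor, had 0.55 (adjusted p = 0.165). The remaining called genes, named after their values were seen, were Csf2ra (1.58, adjusted p = 6.94e-07) and Csf2rb (0.89, adjusted p = 5.32e-06), the receptor chains for GM-CSF. Both chains are also made by macrophages and neutrophils.

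Lists of other dendritic cell genes were counted in the same way, beside 13.2% of all genes tested called higher and 4.99% lower. Of 8 genes of conventional dendritic cells in general, 2 were not called, both named after their values were seen. They were Dpp4 (log2 fold change -0.33, adjusted p = 0.0137) and Cbfa2t3 (0.28, adjusted p = 0.187). The other 6 were called higher, and the median log2 fold change of the list was 2.05. These were the antigen presentation genes Cd74 (529 ± 209 against 128 ± 76.0 CPM, log2 fold change 2.05, adjusted p = 3.21e-06), H2-Eb1 (2.22, adjusted p = 2.04e-06), H2-Ab1 (2.05, adjusted p = 3.64e-06), H2-Aa and Ciita, and the integrin gene Itgax, all of which macrophages also use. Of 11 tested genes of mature or migratory dendritic cells (12 listed), 8 were called higher (median 1.49), among them Fscn1, an actin-bundling protein (1.53, adjusted p = 1.41e-06), and Relb, an NF-kappaB subunit (1.94, adjusted p = 2.65e-06). Socs2, a feedback inhibitor of cytokine signalling that hepatocytes also make, was not called (-0.35, adjusted p = 0.286).

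Most genes of the subset lists were not called, though each list had a larger share called higher than the 13.2% of all genes tested. Of 12 tested cDC1 genes other than the members (13 listed) 4 were called higher (median 0.72): Wdfy4, Cd24a, Naaa and Rab7b. Cd24a, a surface protein that bile duct cells also make, was at 19.2 ± 23.1 CPM on the high-fat diet versus 2.86 ± 1.62 on the control one (log2 fold change 2.74, adjusted p = 6.13e-05). Cadm1, an adhesion molecule, had a log2 fold change of 0.39 (adjusted p = 0.00114), under the fold threshold. Of 10 cDC2 genes 4 were called higher (median 0.55): Sirpa, Clec10a, Clec4a4 and Ltb. Sirpa, an inhibitory receptor that macrophages share, had 2.03 (adjusted p = 1.89e-07), while Cd1d1, a lipid-presenting molecule, and Notch2, a signalling receptor, had -0.36 (adjusted p = 0.055) and -0.31 (adjusted p = 0.0263). Of 13 plasmacytoid genes 4 were called higher (median 0.72): Ly6d (3.87, adjusted p = 6.57e-06), Runx2, Tlr9 and Tlr7. Ly6d was at 81.8 ± 38.5 CPM on the high-fat diet, far above Siglech (0.360 ± 0.207 CPM). The part of other cell types in the levels of Ly6d, Runx2, Tlr9 and Tlr7 was not tested. The interferon-induced genes Bst2 (0.14, adjusted p = 0.411) and Irf7 (0.21, adjusted p = 0.227) were not called. Without high-fat replicate 9 the genes called higher were 6 in the general list, 8 in the mature list, 3 in the cDC1, 3 in the cDC2 and 4 in the plasmacytoid list, and 5 of the ligands, partners and regulators. In the libraries with Xist above 1000 counts they were 3, 2, 1, 1, 1 and 3 in the same order, and with Xist below 1000 counts 6, 8, 6, 5, 5 and 7, with 1 cDC2 gene lower. Of all genes tested, 2.82% and 14.3% were called higher in these sets, and 2137 of 17706 without high-fat replicate 9. Naaa, Rab7b, Clec10a, Clec4a4, Ltb, Runx2, Tlr9, Tlr7, H2-Aa, Ciita and Itgax were named after their values were seen.

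Marker genes of other cell types were read beside these results, and again beside 13.2% of all genes tested called higher and 4.99% lower. All 10 genes of monocytes and monocyte-derived macrophages were called higher (median log2 fold change 2.82), with a summed level of 199 to 992 CPM on the high-fat diet versus 50.02 to 173 on the control diet, so the groups did not overlap. That sum leans on Spp1, named after its values were seen, which had the highest mean of the list on both diets. It was at 268 ± 216 CPM on the high-fat diet versus 43.5 ± 27.9 on the control diet. Of 8 resident macrophage genes 4 were higher (median 0.87), and of 5 tested neutrophil genes 4 (median 2.88), where high-fat replicate 3 alone reached a sum of 166 CPM. A single gene each of the T cell (10 genes, median 0.61), B cell (8 genes, median 0.32) and NK cell (6 genes, median 0.42) lists was called higher: Cd5, Cd22 and Eomes, named after their values were seen. In the libraries with Xist below 1000 counts 5 T cell, 2 B cell and 3 NK cell genes were called higher (medians 1.69, 1.05 and 1.34), and with Xist above 1000 counts none was (medians -0.32, -0.28 and -0.66). Over all genes tested the shares called higher in these sets were 14.3% and 2.82%. Of 8 endothelial genes 2 were higher (median 0.30), and of 8 hepatocyte genes none was higher and 5 were lower (median -0.66). No gene of these lists was at 0 in every library. Their part in the levels of Irf8, Batf3, Flt3 and Cd209a was not tested.

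**Figure D4:**
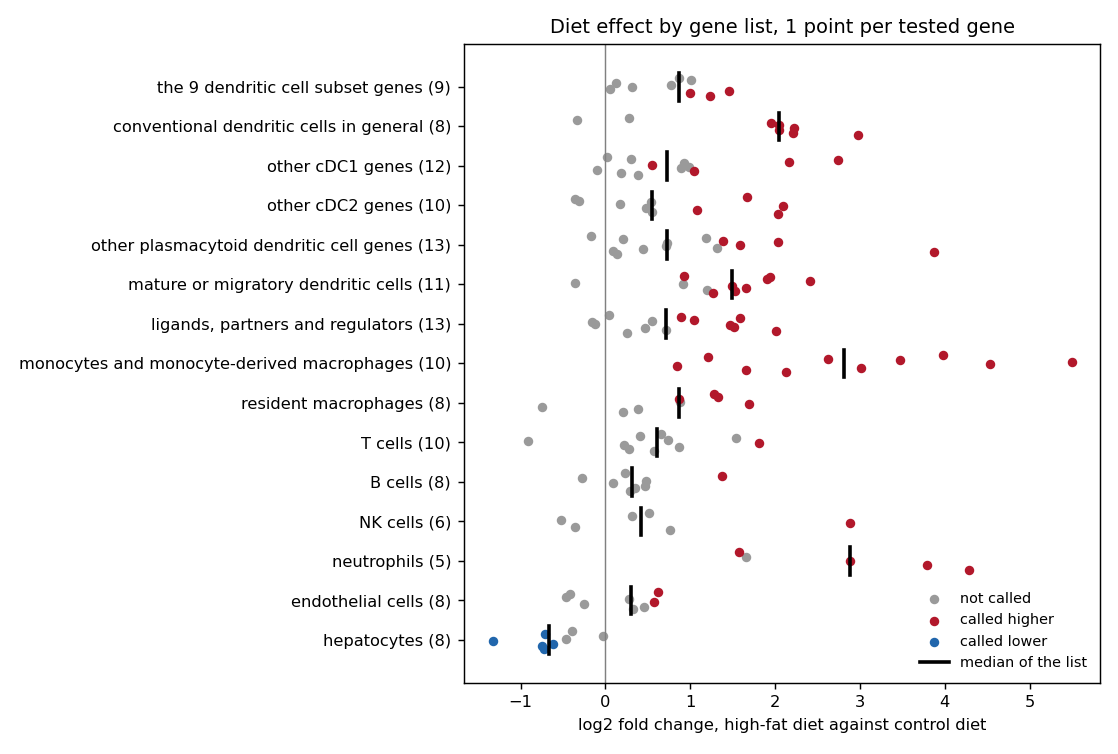
Log2 fold change on the high-fat diet against the control diet (horizontal axis) of each tested gene, by list, with calls in red (higher) and blue (lower), other genes in grey and the median of each list as a black bar. The 9 genes have a median of 0.86, under the medians of the general and mature dendritic cell lists (2.05 and 1.49) and of the monocyte and macrophage list (2.82).

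Correlations between the 9 genes were computed over the libraries of 1 diet. Over the 36 pairs, with the mean of each Xist set removed, the median Pearson r was 0.11 on the high-fat diet (from -0.70 to 0.71) and 0.26 on the control diet (from -0.49 to 0.72). Of 144 tests (36 pairs, both diets, Pearson and Spearman) adjusted together, a single pair passed 0.05. Itgae and Batf3 ran opposite to each other on the high-fat diet (n = 12, r = -0.70, permutation p = 7e-05, adjusted p = 0.0101; rho = -0.87, permutation p = 0.00027, adjusted p = 0.0194). The relation held without the pair of libraries farthest from the Itgae median (r = -0.92) and within each set (r = -0.94 with Xist above 1000 counts and -0.79 below, n = 6 each). On the control diet the same genes had r = 0.63 (permutation p = 0.0477, adjusted p = 0.546; rho = 0.53, adjusted p = 0.546). The difference between the diets was not tested.

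**Figure D5:**
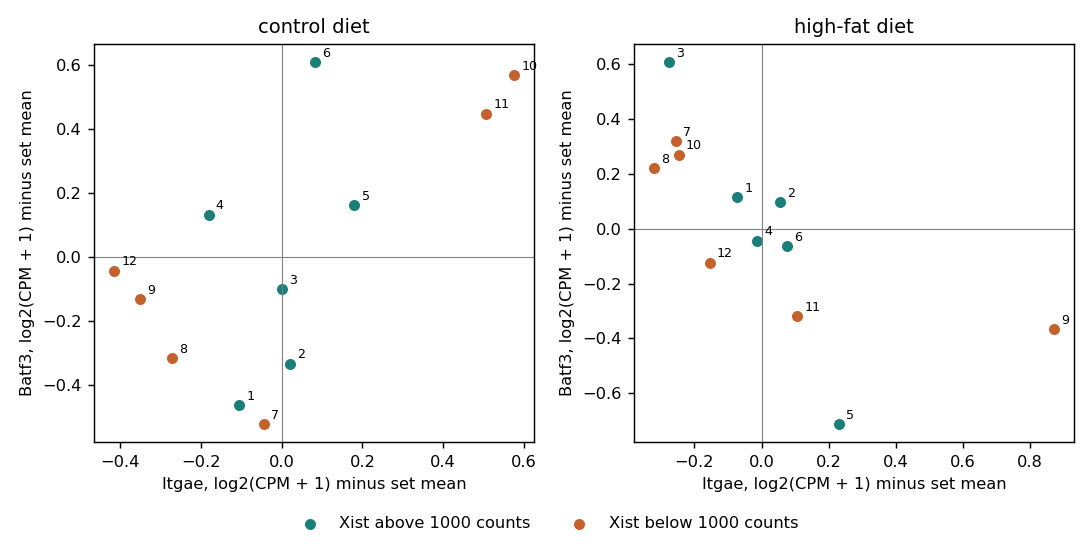
Batf3 against Itgae, both as log2(CPM + 1) minus the mean of their Xist set, in the 12 libraries of each diet, with points numbered by replicate. On the high-fat diet the points fall from upper left to lower right (r = -0.70), with replicate 9 far to the right, and without the 2 libraries farthest from the Itgae median r is -0.92.

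The pairs named by function did not pass. Batf3 and Irf8 had r = 0.48 on the high-fat diet (permutation p = 0.152, adjusted p = 0.546) and r = 0.72 on the control diet (permutation p = 0.0146, adjusted p = 0.438; rho = 0.76, permutation p = 0.00841, adjusted p = 0.404). Xcr1 and Clec9a, both on cDC1, had r = -0.11 on the high-fat diet (permutation p = 0.734) and r = 0.59 on the control diet (permutation p = 0.0572, adjusted p = 0.546). For Flt3 and Zbtb46 r was 0.36 (permutation p = 0.257) and -0.31 (permutation p = 0.342). With under 20 counts in many libraries, the counting error of Xcr1, Itgae, Flt3, Cd209a and Siglech limits any such r.

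As a further description, the genes whose log2(CPM + 1) ran most like each member were sought among 13917 genes with a mean of at least 10 counts, over all 24 libraries after the mean of each diet and Xist set was subtracted. Batf3 was closest to Ifi30 (r = 0.89), a lysosomal reductase of antigen processing, H2-D1 (0.85), an MHC class I gene, and Hmox1 (0.83), a haem-degrading enzyme. Irf8 was closest to Rgs14 (0.85), Ucp2 (0.84) and Gpsm3 (0.84). Clec9a was closest to Pecam1 (0.78), an endothelial adhesion gene, Acer2 (0.78) and Rcsd1 (0.78). Zbtb46 was closest to Ppm1k (0.71), Rfx3 (0.66) and Rrp1b (0.65).

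For Itgae, Flt3 and Cd209a the likeness was lower without high-fat replicate 9, as it was for Xcr1 with Tmem200b and Nrxn2. Itgae was closest to Cftr (0.85, or 0.79 without high-fat replicate 9), Npdc1 (0.83, or 0.71) and Fbln1 (0.82, or 0.70). Flt3 was closest to Gadd45b (0.80, or 0.74 without that library), Pdzk1ip1 (0.79, or 0.71) and Cd34 (0.78, or 0.69). Cd209a was closest to Tbc1d19 (0.83, or 0.81 without it), Meox1 (0.81, or 0.77) and Evpl (0.78, or 0.73). Xcr1 was closest to Zfpm2 (0.73, or 0.75 without it), Tmem200b (0.72, or 0.68) and Nrxn2 (0.71, or 0.64). Siglech was closest to Arhgap44 (0.79), Limch1 (0.77) and Fbn1 (0.70). These values were picked as the highest of many and share the libraries they were ranked on.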

How the data were processed

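Whole-liver poly(A) RNA of 24 mouse libraries was measured by RNA-Seq. The authors deposited whole-number counts for 56205 Ensembl genes, without normalization. The submitters' processing notes list STAR 2.7.3a, bcl2fastq and the build mm10, while the counting program, its strand setting and its annotation are not given in the sources used here. Symbols were found for 51745 IDs in GENCODE M21, whose gene models (GRCm38) gave the places and merged exon lengths, and the other IDs held 0.0723% of counts. Depth was 14468418 to 22112552 counts per library, and the limit that 3 counts set covers counting error only. Libraries of the same diet all differed by more than sampling noise (lowest chi-square per degree of freedom 9.48 and 17.0).

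From these counts, edgeR 4.0.16 in R 4.3.3 was run with TMM factors and diet alone in its quasi-likelihood model. Genes needed 1 count or more in 12 or more libraries, which left 17913 for the Benjamini-Hochberg adjustment. The SE of a log2 fold change was taken as its size over the root of F. Interactions used diet, Xist set and their product. Correlations used log2(CPM + 1) and two-sided permutation tests with 100000 resamples within Xist sets. The scripts were tested on simulated data. Alternatives were DESeq2 1.42.0, limma-voom (limma 3.58.1), other scaling, filters and thresholds, a pseudocount of 0.1, the replicate number as a block, the Xist set as a covariate, and each library left out in turn. Alternatives for the interaction, the lists and the pair Itgae and Batf3 were added after seeing the data.

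The members, lists, Xist split and tests were chosen with earlier results of these data known. Genes named were the 9 members, 10 ligands and partners, the 3 genes of highest mean CPM in each other dendritic cell list, the 3 genes most like each member, Ptprc and Alb, Clec1b for its overlap with Clec9a, and those said to be named after their values were seen. Other cell types are given by list.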

Additional observations from a re-analysis of the deposited data

Results flagged for a closer look

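Irf8 and Flt3 were picked out by the interaction test of edgeR's quasi-likelihood fit. Their diet effects differed between the libraries with more and with fewer than 1000 Xist counts. The same test passed for 10.2% of all genes. Of the 10 ligands and partners it passed for Xcl1, Itgb7, Tyrobp, Syk and Wdfy4, and not for Flt3l, Cdh1, Id2, Nfil3 and Irf4. In the general dendritic cell list Cd74, H2-Eb1, H2-Ab1, H2-Aa, Ciita and Itgax passed, and Dpp4 and Cbfa2t3 did not. The log2 fold change of Irf8 was larger by 1.42 in the libraries with fewer Xist counts (SE 0.22, adjusted p = 0.000279), with every high-fat library above every control library there and 5 of 6 above every control library in the other set. For Flt3 it was larger by 1.78 (SE 0.52, adjusted p = 0.0275). There 6 of 6 high-fat libraries were above every control library in the set with fewer Xist counts, and 3 of 6 in the other. In the set with fewer Xist counts 12.6% of all genes tested had every high-fat library above every control library. For Ptprc it was 6 of 6 libraries in that set and 4 of 6 in the other. These counts come from the libraries that gave the interaction, so they are not separate support. The Flt3 difference no longer passed without high-fat replicate 9 (adjusted p = 0.0576), control replicate 5 (0.0531) or control replicate 9 (0.0506).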

How the results depend on the processing

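Of 551 values of the 9 genes' log2 fold changes and their differences between the Xist sets under the alternatives, 522 kept their direction and side of the threshold, 18 came to pass it, 7 no longer passed and 4 turned. When libraries were scaled by their totals, 3827 genes were higher and 226 lower, 94.4% of the calls were higher (72.6% with TMM), the median log2 fold change of all genes was 0.26, and the interaction passed for 5 of the 9 genes and 17.9% of all genes. In the libraries with Xist above 1000 counts, 509 genes were higher, 177 lower and 0 of the 9 genes higher, and Clec9a (-0.081), Itgae (-0.29) and Zbtb46 (-0.14) turned. In those with Xist below 1000 counts 1430 genes were lower and 5 of the 9 higher. At an adjusted p of at most 0.05 with no fold threshold 3709 genes were higher and 3388 lower, and with a log2 fold change over 1 216 were lower. Leaving out 1 library gave 2137 to 2464 genes higher, 745 to 995 lower, 3 to 4 of the 9 genes higher, none lower, and 1 to 3 with an interaction (1 without high-fat replicate 9 or control replicate 5). Itgae ran from -0.15 (without high-fat replicate 9) to 0.20 (without control replicate 5). Of the 27 genes listed as most like a member, 15 were again in the first 3 by Spearman's rho and 15 with a pseudocount of 0.1.

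Diets share replicate numbers, but the deviations of same-numbered libraries correlated over 0.1 for 9 of 12 numbers only (lowest -0.08), so the pairing is not established. With the replicate number as a block 2063 genes were higher and 844 lower, and 2 of the 9 genes were called, Batf3 having a log2 fold change of 1.03 (adjusted p = 0.0188). Only 2 of the 12 high-fat libraries correlated best with their own number. Cd209a was called under DESeq2, library totals, in the libraries with Xist below 1000 counts, and without high-fat replicate 3 or control replicate 6. The filterByExpr filter tested 6 of the 9 genes and a filter of 10 counts 7. Depth limits Xcr1, Itgae, Cd209a and Siglech most.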
